A study of Homo sapiens with 2 samples.

Results

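Mitochondrial ribosomal protein genes are the 78 protein-coding genes of the GENCODE annotation on GRCh37 whose symbols start with MRPL or MRPS followed by a digit, out of 20098 protein-coding genes on the 23 chromosomes of the peak list. To map binding of the MYB-family transcription factor MYBL2 in Ewing sarcoma, the study carried out ChIP-seq (sequencing of immunoprecipitated chromatin) in A673, an established cell line of this tumour. The antibody was given as anti-MYBL2 by the sample labels and as directed at the activated, phosphorylated protein (p-MYBL2) by the study's methods. From the same unmodified line, labelled WT, there was 1 library of MYBL2 ChIP and 1 of input (chromatin that was sheared but not immunoprecipitated), with no replicate of either. A gene was called bound when at least 1 base of a deposited peak lay within 1000 bp of one of its annotated transcription start sites (TSSs), a span called its promoter here.

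Mitochondria keep their own ribosome, the mitoribosome, which translates the few proteins encoded by mitochondrial DNA, all of them subunits of the respiratory chain and ATP synthase. Its RNAs come from mitochondrial DNA, whereas all of its proteins are encoded in the nucleus, made in the cytosol and imported. Some of these proteins have homologues in the bacterial ribosome and others are found only in mitochondria. Promoters of such nuclear genes are known for sites of NRF1, of ETS factors such as GABP (also called NRF2), and of YY1. MYB factors recognise a short site with the core AAC, and MYBL2 is also brought to promoters as part of the MuvB complex through an element called CHR.

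The list held 66954 peaks, whose fold enrichment had a median of 3.79 (range 1.54 to 64.9). Fold enrichment is the authors' ratio of the pileup of ChIP fragments at the summit of a peak to the local background, each with 1 added. The pileup was recovered as a whole number from the deposited values, and its exact Poisson interval (95%) gives the counting interval of a fold enrichment. These intervals hold the background fixed and cover counting error only, and no value below has a replicate error. A peak list holds no expression, so the labelled cell type could not be checked against markers.

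Sequences of 50 bp either side of the summit are shown for the 5 members with the strongest peaks, for the strongest member with each motif discussed below, and for MRPS11, which shares its peak with MRPL46. Each is from GRCh37, 5′ to 3′ on the strand of the gene, and capitals mark letters that match one of the 10 motifs searched.
MRPL57 (chr13:21750700-21750800, plus strand): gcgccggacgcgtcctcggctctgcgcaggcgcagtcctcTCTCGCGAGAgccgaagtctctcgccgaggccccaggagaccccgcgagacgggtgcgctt
MRPS18B (chr6:30584918-30585018, plus strand): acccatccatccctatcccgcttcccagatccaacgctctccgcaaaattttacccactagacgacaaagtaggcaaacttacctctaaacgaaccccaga
MRPL24 (chr1:156710970-156711070, minus strand): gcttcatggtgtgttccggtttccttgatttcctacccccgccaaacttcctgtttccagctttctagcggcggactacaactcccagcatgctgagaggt
MRPS16 (chr10:75012407-75012507, minus strand): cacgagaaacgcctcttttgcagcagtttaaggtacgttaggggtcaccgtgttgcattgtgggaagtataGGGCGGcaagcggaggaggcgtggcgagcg
MRPL20 (chr1:1342705-1342805, minus strand): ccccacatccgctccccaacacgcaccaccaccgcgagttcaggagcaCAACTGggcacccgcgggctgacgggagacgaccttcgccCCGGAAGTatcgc
MRPL36 (chr5:1801445-1801545, minus strand): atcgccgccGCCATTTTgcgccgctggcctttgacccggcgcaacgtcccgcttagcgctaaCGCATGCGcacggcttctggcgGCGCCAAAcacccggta
MRPL18 (chr6:160211380-160211480, plus strand): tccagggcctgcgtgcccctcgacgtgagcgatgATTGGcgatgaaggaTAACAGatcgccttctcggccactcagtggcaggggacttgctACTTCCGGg
MRPS7 (chr17:73257671-73257771, plus strand): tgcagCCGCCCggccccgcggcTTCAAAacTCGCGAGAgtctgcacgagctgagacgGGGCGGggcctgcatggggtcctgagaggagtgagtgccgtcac
MRPS11 (chr15:89010543-89010643, plus strand): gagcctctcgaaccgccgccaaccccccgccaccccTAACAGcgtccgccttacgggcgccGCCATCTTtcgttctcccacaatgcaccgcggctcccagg

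Of the 78 members, 77 were bound (98.7%, exact binomial interval 93.1 to 100%), beside 59.4% of the protein-coding genes (11941 of 20098) and 22.9% of all 18592 lncRNA genes. The best promoter peak, that with the highest fold enrichment, had a median of 10.8 over the 77 bound members (interquartile range 9.18 to 13.5, range 4.70 to 35.1). Over all bound protein-coding genes the median was 8.67 (5.94 to 12.1). The median of the family was higher than the best peaks of 66.8% of bound protein-coding genes. Of the 77 members, 61 lay above the protein-coding median, 30 were at or above the upper quartile and 76 at or above the lower quartile. A promoter peak of at least 5-fold was present in 76 of the 78 members, against 49.6% of protein-coding genes. For a peak of at least 10-fold the members numbered 46, against a background of 23.1%, and for at least 20-fold they numbered 8, against 3.76%.

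In fragments, the best peaks of the members had a median pileup of 58 (range 30 to 198), and those of all bound protein-coding genes one of 43. Their median width was 1021 bp (301 to 9601 bp), against 865 bp. As a scale within the same library, the best promoter peak of BIRC5 (survivin, a mitotic gene) had a fold enrichment of 37.1, and 0 members exceeded it. That of AURKB, which encodes the mitotic kinase Aurora B, was 19.1, and 8 members exceeded it. That of CCNF, which encodes cyclin F, was 9.21, and 52 members exceeded it. The peak of BIRC5 had 164 fragments, fewer than the 198 of MRPL57 and the 186 of MRPS18B. The counting intervals of MRPL57 (30.4 to 40.4) and MRPS18B (28.5 to 38.1) include 37.1, so neither could be ranked against BIRC5 at this depth.

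**Figure D1:**
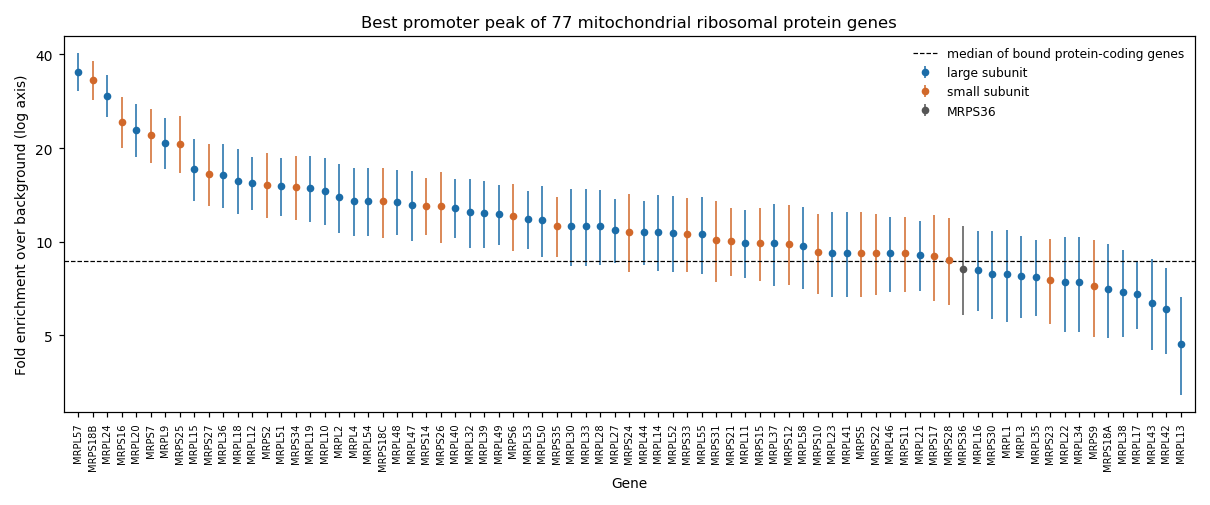
Fold enrichment of the best promoter peak (log axis) of each of the 77 bound members in falling order, coloured by subunit. Bars are 95% counting intervals from the pileup, and the dashed line is the median of all bound protein-coding genes, 8.67. Values run from 35.1 at MRPL57 to 4.70 at MRPL13, and the intervals of most neighbours overlap.

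The large subunit holds the centre that joins amino acids, and 51 members encode proteins of it. Of these, 50 were bound with a median fold enrichment of 11.1 (interquartile range 8.36 to 13.5), and 37 were above the protein-coding median. The small subunit reads the mRNA, and all of its 26 members were bound with a median of 10.7 (9.22 to 14.6), 24 of them above the protein-coding median. The medians differed by 0.36, and this difference was not tested. The 78th gene, MRPS36, is now known to encode a subunit of the 2-oxoglutarate dehydrogenase complex rather than of the ribosome, and its best peak was 8.19-fold.

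Large-subunit proteins with bacterial homologues are encoded by 30 members, and all 30 were bound, with a median of 11.2. MRPL24 had the strongest peak of this class, with a pileup of 164 fragments over a background of 4.59 and a fold enrichment of 29.5 (counting interval 25.2 to 34.4). Its summit lay 97 bp upstream of the nearest TSS, and it ranked 180th of all 66954 peaks. MRPL20 had a fold enrichment of 22.9 (18.7 to 27.8) over a background of 3.45. MRPL9 had 109 fragments over 4.30, or 20.8-fold (17.1 to 25), and MRPL15 had 75 over 3.45, or 17.1-fold (13.5 to 21.3). The interval of MRPL20 overlapped that of MRPL24, whereas those of MRPL9 and MRPL15 lay below it.

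The stalk of the large subunit, which recruits translation factors, is built by the products of MRPL10 and MRPL12. Their best peaks were 14.6-fold and 15.5-fold. MRPL11, whose product forms the base of the stalk, had 9.91-fold. MRPL22, MRPL23 and MRPL24 encode proteins around the exit of the nascent chain, and their values spread over a wide range, at 7.41, 9.21 and 29.5.

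At the other end of this class, MRPL13 had the weakest best peak of the family, with 30 fragments over a background of 5.60 and a fold enrichment of 4.70 (3.22 to 6.64). It was the one bound member under 5-fold, and it was stronger than 13.2% of bound protein-coding genes. MRPL17 had 63 fragments over 8.40, or 6.81-fold (5.26 to 8.69). Its pileup was above the family median of 58, and its background was the highest among the 77 best peaks. MRPL34, MRPL22, MRPL35, MRPL3, MRPL1 and MRPL16 lay between 7.41 and 8.12, and the remaining members of this class between 9.10 and 16.4.

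Large-subunit proteins classed here as found only in mitochondria are encoded by 21 members, of which 20 were bound, with a median of 10.7. MRPL57 (ENSG00000173141) had the strongest promoter peak of the family, at chr13:21749699-21752132. It had 198 fragments over a background of 4.66, a fold enrichment of 35.1 (30.4 to 40.4) and rank 94 among all peaks. The next in this class were MRPL51 at 15.1, MRPL54 at 13.5 and MRPL48 at 13.4, and their counting intervals lay below that of MRPL57. MRPS30 and MRPS18A, which despite their symbols encode proteins placed in the large subunit, had 7.90-fold and 7.05-fold peaks. MRPL58 encodes a peptidyl-tRNA hydrolase related to release factors that became part of the subunit, and had 9.66-fold. The weakest were MRPL38 with 38 fragments over 4.66, or 6.89-fold (4.92 to 9.39), MRPL43 with 35 over 4.66, or 6.36-fold (4.48 to 8.77), and MRPL42 with 39 over 5.60, or 6.06-fold (4.36 to 8.23). These intervals overlapped each other and that of MRPL13.

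MRPL45 (ENSG00000278845) was the one member with no promoter peak. Its product lies at the exit of the nascent chain and holds the ribosome to the inner membrane. No peak lay in its gene body, and the nearest one, 22 fragments (13.8 to 33.3) and 5.17-fold, was 54201 bp from its TSSs at chr17:36507335-36507810. The smallest pileup of any listed peak was 11 fragments. Of the 2001 bp around its canonical TSS, 1269 bp (63.4%) stood in stretches of at least 100 bp, the length of the reads, with an exact copy elsewhere in GRCh37. The copy spans MRPL45P2 on the same chromosome, was 97.2% identical over 2003 aligned positions and held 0 peaks. Among the other members, MRPL4 had 8.50% and MRPL52 7.75% of this window in exact copies, and the remaining 75 had none. Reads with more than 1 best place have low mapping quality, and the authors kept only reads with a quality of at least 20. The part of this in the missing peak was not tested.

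Small-subunit proteins with bacterial homologues are encoded by 16 members, all bound, with a median of 9.98. MRPS16 led with 114 fragments over 3.73, or 24.3-fold (20.1 to 29.2), and its summit was 6 bp from the nearest TSS. MRPS7 followed with 97 fragments over 3.45, or 22.0-fold (17.9 to 26.8). MRPS2 at 15.3, MRPS18C at 13.5, MRPS14 at 13.1 and MRPS6 at 12.1 came next. MRPS12, whose product is part of the centre that checks codon pairing, had 9.85-fold. The lowest was MRPS9 at 7.19, and the other 8 lay between 8.76 and 10.8.

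Small-subunit proteins classed here as found only in mitochondria are encoded by 10 members, all bound, with a median of 12.1. MRPS18B, a relative of MRPS18A and MRPS18C, had 186 fragments over 4.66, or 33.0-fold (28.5 to 38.1). MRPS18C was placed with the proteins that have bacterial homologues, so the class given to MRPS18A and MRPS18B does not mean that they lack such relatives. The peak of MRPS18B is described next. This peak, chr6:30576772-30586372, was the widest of the family at 9601 bp. The summit lay 649 bp upstream of the nearest TSS of MRPS18B. It was 52 bp from a TSS of the divergent neighbour PPP1R10, which encodes a regulatory subunit of a nuclear protein phosphatase. MRPS25 had 91 fragments over 3.45, or 20.7-fold (16.7 to 25.3), with its summit 8 bp downstream of a TSS. MRPS27, which encodes an RNA-binding pentatricopeptide repeat protein, had 74 fragments over 3.55, or 16.5-fold (13 to 20.6). MRPS34 had 15.0, MRPS26 13, MRPS35 11.2, MRPS33 10.6, MRPS31 10.1, MRPS22 9.21 and MRPS23 7.54. The intervals of MRPL57, MRPS18B and MRPL24 overlapped, so these 3 members could not be ranked against each other at this depth.

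The summits sat close to the start sites. The median distance from the summit of the best peak to the nearest TSS of the same gene was 35 bp for the 77 members and 73 bp for all bound protein-coding genes. Within 50 bp of a TSS lay 49 of 77 member summits (63.6%, exact binomial interval 51.9 to 74.3%), against 40.7% of all bound protein-coding genes. Within 100 bp lay 72 of 77 (93.5%, 85.5 to 97.9%), against 58.6%. Upstream of the TSS were 47 summits (61.0%, 49.2 to 72.0%, against 54.2% of all bound protein-coding genes). Downstream were 29 (37.7% against 44.7%), and that of MRPL48 was on it. In terms of the canonical transcript of the gene, 45 summits were outside it (58.4%, against 52.6% of all bound protein-coding genes) and 15 in the 5′ UTR (19.5% against 24.6%). In a coding exon were 12 (15.6% against 7.42%), and in an intron 5 (6.49% against 14.9%).

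**Figure D2:**
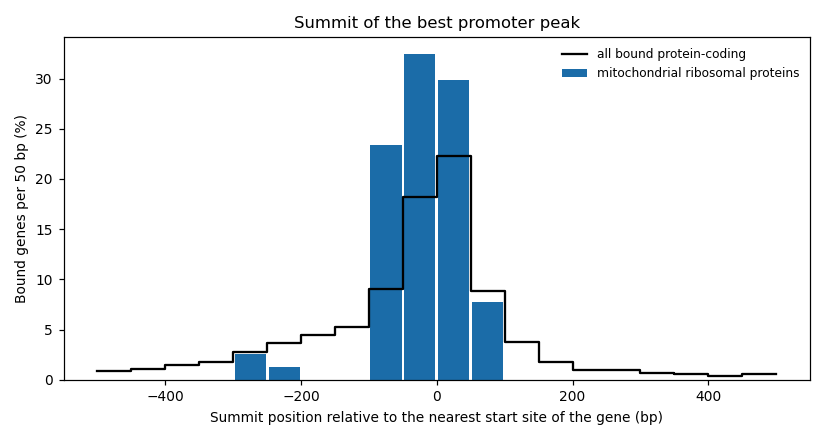
Position of the summit of the best promoter peak relative to the nearest TSS of the gene, in bins of 50 bp from 500 bp upstream (negative) to 500 bp downstream, as percent of bound genes. Bars are the 77 members, of which 72 lie within 100 bp, and the line is all bound protein-coding genes. MRPS18B and MRPL34 lie outside the plotted range.

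The 5 members with a summit more than 100 bp from every TSS of their own were MRPS18B (649 bp upstream), MRPL34 (608 bp downstream), MRPL40 (280 bp upstream), MRPS12 (252 bp upstream) and MRPS9 (244 bp upstream). For MRPS18B, MRPL34 and MRPS12 the summit was nearer to the TSS of the divergent gene, at 52 bp for PPP1R10, 50 bp for ABHD8 and 66 bp for SARS2, the mitochondrial seryl-tRNA synthetase. For MRPL40 it was 532 bp from a TSS of HIRA, which encodes a histone chaperone.

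A single promoter peak was present at 51 of the 77 members (66.2%, against 53.1% of bound protein-coding genes), 18 had 2 and 8 had 3 or more. The 35 promoter peaks beyond the best one had a median fold enrichment of 3.64, near that of the whole list. The strongest of them were at MRPL36 and MRPS27. MRPL36 had peaks of 16.4-fold and 15.9-fold, the former 1544 bp upstream of its canonical TSS and the latter 133 bp upstream of it. MRPS27 had its 16.5-fold peak at a TSS 11963 bp inside the gene, and the peak at its canonical promoter, 179 bp upstream, was 12.1-fold. Its remaining peak was 3.59-fold.

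Among the other members with at least 3 promoter peaks, MRPS14 had 4, of which the best was 13.1-fold at 22 bp upstream of its canonical TSS and the others 3.32-fold, 3.64-fold and 3.13-fold. MRPL50 had 11.7-fold beside 3.22-fold and 3.18-fold, MRPS15 had 9.89-fold beside 3.64-fold and 3.45-fold, and MRPL23 had 9.21-fold beside 3.15-fold and 3.37-fold. MRPL11 had 9.91-fold and 3.37-fold peaks near its canonical TSS and a 7.41-fold peak at an annotated TSS 28114 bp upstream. MRPL42 had 6.06-fold at its canonical promoter and 2.73-fold and 4.09-fold at starts inside the gene. MRPL34 differed from these in that no peak dominated. It had 7.41-fold, 5.84-fold and 5.58-fold peaks, and the one at its canonical TSS was the 5.58-fold peak. Outside the promoter windows, 29 members had 73 further peaks in the gene, with a median of 3.55-fold. They were unevenly spread, with 11 each in MRPS25 and MRPS6, and no share over all protein-coding genes is given for this count.

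Genes that start close together on opposite strands can share a promoter, and a peak there cannot be given to either gene. A TSS of a protein-coding or lncRNA gene on the other strand lay within 1000 bp of a TSS of 39 of the 78 members (exact binomial interval of the share, 38.5 to 61.5%), against 34.8% of protein-coding genes. Such genes are called divergent here, but the search did not check that they point away from each other. A protein-coding partner was present for 33 members (42.3%), against 17.7%, and the other 6 had a lncRNA only. All 39 divergent members were bound, against 81.9% of divergent protein-coding genes, and so were 38 of the 39 others, against 47.4%. The median fold enrichment was 12.3 for the divergent members and 10.1 for the others, a difference of 2.19, which was 1.37 with partners within 500 bp and 1.43 with the outermost TSS only. Over all bound protein-coding genes it was 9.66 and 7.82, a difference of 1.84. Among genes with no divergent partner, the median was 10.1 over the 38 bound members and 7.82 over all bound protein-coding genes. The part of divergent promoters in the strength of the peaks was not tested.

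**Figure D3:**
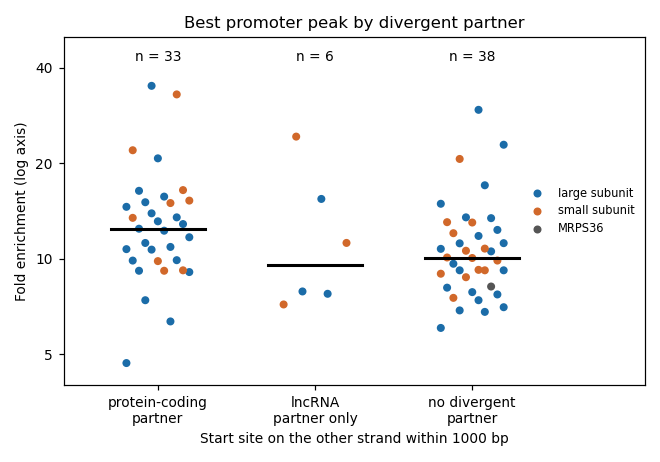
Strength of the best promoter peak, as fold enrichment (log axis), of the bound members by the kind of gene that starts on the other strand within 1000 bp, with 1 point per member coloured by subunit and a bar at the median. Medians are 12.5 for the 33 members with a protein-coding partner, 9.57 for the 6 with a lncRNA only and 10.1 for the 38 with none, and the ranges overlap.

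The 33 members with a protein-coding partner made 35 pairs, and in 32 pairs the best peak of both genes was the same. Promoter windows of genes that start within 1000 bp of each other overlap, so a shared peak largely follows from the definitions. No share over all divergent pairs is given. MRPL47, MRPL32 and MRPL37 each enter with a further partner at the same peak. Of the 31 pairs with the same best peak and a partner outside the family, the summit was nearer to the member in 21 and nearer to the partner in 10. The strongest pair was MRPL57 with SKA3, which encodes a protein of the spindle and kinetochore complex, with TSSs 106 bp apart and the summit 47 bp from MRPL57 and 59 bp from SKA3. MRPS7 and GGA3, a Golgi adaptor gene, started 43 bp apart and shared a 22.0-fold peak. MRPL9 and OAZ3, an antizyme gene, started 4 bp apart and shared a 20.8-fold peak. MRPL51 shared a 15.1-fold peak with NCAPD2, a condensin gene, whose TSS was the nearer one at 8 bp.

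Several partners also act in mitochondria or in translation. MRPL36 stood 41 bp from NDUFS6 and MRPL47 41 bp from NDUFB5, both complex I genes, with peaks of 16.4-fold and 13.1-fold. MRPL43 stood 21 bp from TWNK, which encodes the mitochondrial DNA helicase, with a 6.36-fold peak at 0 bp from a TSS of TWNK. MRPS12 and SARS2 shared a 9.85-fold peak. MRPL49 stood 6 bp from FAU, which encodes a cytoplasmic ribosomal protein, with a 12.3-fold peak. MRPL46 and MRPS11 were the one pair in which both genes are members, with TSSs 63 bp apart. Their common peak, chr15:89010316-89011682, had 51 fragments over 4.66, or 9.18-fold (6.88 to 12.0), with the summit 26 bp from MRPL46 and 91 bp from MRPS11. MRPL13 shared its 4.70-fold peak with MTBP, whose TSS was 2 bp away. In 3 pairs the best peaks differed: MRPS27 with PTCD2, MRPL11 with PELI3, and MRPS22 with PRR23A, which had no promoter peak. The best summits of these members lay 12090, 27431 and 337720 bp from the partner, but all 3 members count as divergent above.

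CpG-rich promoters (observed to expected CpG of at least 0.6 within 500 bp of the canonical TSS) were present at 71 of the 78 members (91.0%), against 65.9% of protein-coding genes. Of these 71 members 70 were bound, against 78.9% of CpG-rich protein-coding genes, with medians of 10.8 and 8.99. The other 7 members, MRPL24, MRPL11, MRPS10, MRPL42, MRPL10, MRPL55 and MRPL30, were all bound with a median of 10.6. Over all CpG-poor protein-coding genes 21.6% were bound, with a median of 6.36. The ratios of the 7 members ran from 0.524 to 0.595, just under the cutoff. The CpG-poor protein-coding genes have no lower limit, so the classes are not matched in CpG ratio. MRPL24 had the lowest CpG ratio of the family, 0.524, beside the third strongest peak.

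The 10 motifs were sought on both strands within 50 bp of the summits, in the 76 distinct best peaks of the members and in the 10178 of all protein-coding genes. The letters of the YY1 site, AANATGGC, stood at 14 of 76 member summits (18.4%, exact binomial interval 10.5 to 29.0%), against 4.44%. The ETS site, CCGGAAGT, stood at 9 (11.8%, 5.56 to 21.3%), against 3.48%. The core of the NRF1 site, CGCATGCG, stood at 3 (3.95%, 0.822 to 11.1%), against 0.825%. At least 1 of these 3 motifs was present at 23 of the 76 (30.3%), against 8.46% of all 10178. The sequence of MRPL36 above holds the NRF1 and YY1 letters together, MRPL20 and MRPL18 hold the ETS letters, and MRPS11 holds those of YY1.

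The sites tied to MYBL2 were set beside all protein-coding genes in the same way, and no difference was tested. The MYB site, TAACNG or CAACNG, was present at 9 member summits (11.8%, 5.56 to 21.3%), against 17.3%. These include the summits of MRPL20, MRPL18 and MRPS11 shown above. CHR, TTTGAA, was present at 3 (3.95%, 0.822 to 11.1%), against 3.32%, and MRPS7 was the strongest of them. E2F letters, TTTCCCGC or TTTGGCGC, stood at 3 (3.95%) against 1.18%.

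The GC box of SP1, GGGCGG, stood at 21 (27.6%, 18 to 39.1%), against 29.3%, and the CCAAT box at 7 (9.21%), against 9.72%. The letters TCTCGCGA, named for ZBTB33, stood at 2 (2.63%) against 2.17%, at MRPL57 and MRPS7. ACTACAAT, part of the element of THAP11 and ZNF143, stood at 0 of 76, which allows a share of up to 4.74% (exact binomial), against 0.472%. None of the 10 motifs was found at 28 of the 76 summits, those of MRPS18B and MRPL24 among them. No share over all protein-coding genes is given for this count. A match says only that the letters are there, and binding of the factors themselves was not measured.

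Peaks with the YY1 letters were not the higher ones. Best peaks with the YY1 letters had a median of 8.68-fold and those without 11.2-fold, and for ETS the medians were 11.8-fold and 10.8-fold. In the 300 bp from 250 bp upstream of the TSS, 26 of 77 members held the YY1 letters (33.8%, against 10.8% of bound protein-coding genes), 12 the ETS letters (15.6% against 9.71%) and 5 the NRF1 letters (6.49% against 4.30%). The MYB letters were in 41.6% against 42.7%. In the same 300 bp, SP1 letters were in 58.4% against 71.7%, CCAAT in 29.9% against 35.9% and CHR in 6.49% against 8.92%. E2F letters were in 5.19% against 4.06%, ZBTB33 in 3.90% against 3.01% and THAP11 in 2.60% against 1.06%.

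**Figure D4:**
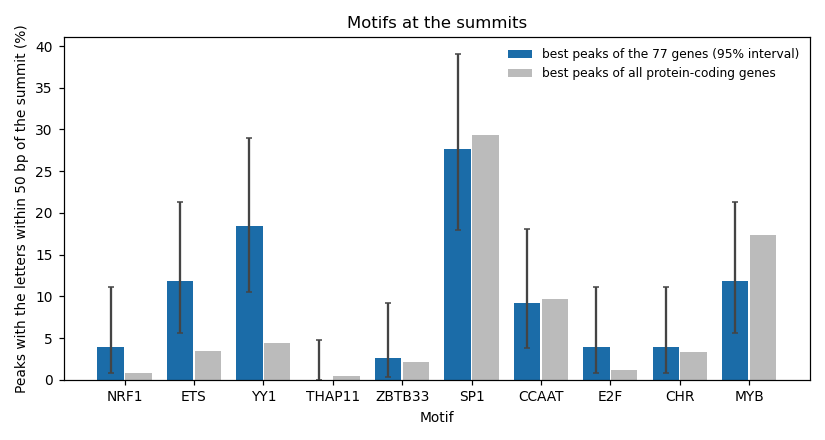
Percent of distinct best promoter peaks with the letters of each motif within 50 bp of the summit, for the members (76 peaks, with 95% exact binomial intervals) and for all protein-coding genes (10178 peaks). The shares are 11.8% against 3.48% for ETS and 18.4% against 4.44% for YY1. The intervals treat the genes as independent draws, and no difference was tested.

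Other genes that the mitoribosome depends on had values close to those of the members. The lists here and below are not independent of the family, since SARS2, TWNK, NDUFS6, NDUFB5 and FAU share their best peak with a member. The 5 further subunits without an MRP symbol were all bound, with a median of 10.5, led by AURKAIP1 at 34.6 and CHCHD1 at 15.5, and DAP3 was lowest at 4.52. All 27 assembly factors were bound, with a median of 11.1, led by FASTKD2 at 33.4 and DDX28, an RNA helicase, at 21.1. All 16 mitochondrial translation factors were bound, with a median of 10.1, led by GUF1 at 16.8 and MTIF2, an initiation factor, at 15.1. All 17 mitochondrial tRNA synthetases were bound, with a median of 10.5, led by TARS2 at 20.8. All 11 genes of mitochondrial DNA expression were bound, with a median of 10.1, led by MGME1 at 29.7 and POLG, the DNA polymerase, at 15.3.

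The respiratory complex I contains both imported subunits and products of the mitoribosome. All 39 genes with an NDUFA, NDUFB, NDUFC, NDUFS or NDUFV symbol were bound, with a median of 11.9, led by NDUFA11 at 34.7 and NDUFA7 at 34.0. This list went by symbol alone, NDUFA4 and NDUFA4L2 included, and membership of the complex was not checked gene by gene. The cytoplasmic ribosomal protein genes were higher. Of 86 genes, 84 were bound, with a median of 19.9, led by RPS19 at 50.1 and RPL12 at 47.7, and 80 of them exceeded the median of the mitochondrial family. The median of the cytoplasmic genes lay above the values of all but 8 members.

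**Figure D5:**
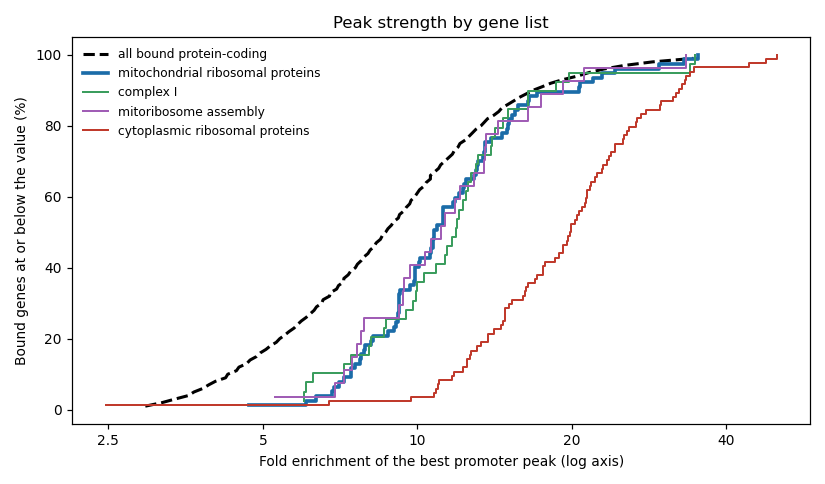
Percent of bound genes whose best promoter peak is at or below a given fold enrichment (log axis), for the 77 members, 3 other lists and all bound protein-coding genes. The curve of the members lies with those of complex I (a list by symbol) and mitoribosome assembly (medians 10.8, 11.9 and 11.1). It is right of the protein-coding curve (8.67) and left of the cytoplasmic ribosomal proteins (19.9).

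Mitochondrial ribosomal protein genes have left many processed copies in the genome. Of the 79 annotated pseudogenes with an MRPL or MRPS symbol, 4 (5.06%, exact binomial interval 1.40 to 12.5%) had a peak within 1000 bp of their start, against 2.98% of all 15000 pseudogenes. The peaks at MRPL42P1 (13.3-fold) and MRPL15P1 (6.29-fold) were also at promoters of protein-coding genes. Those at MRPS31P5 (6.74-fold) and MRPS6P4 (3.31-fold) were not.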

How the data were processed

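One MYBL2 ChIP library and 1 input library of A673 cells were used, with 100 bp single-end reads. Per the labels and the study's methods, the authors aligned reads to hg19 with Bowtie2 2.1.10, kept those with a mapping quality of at least 20, and called narrow peaks with MACS2 2.0.10 against the input at q 0.05. What a further cleaning of the list removed is not given in the sources used here. The deposited values were fold enrichment (a linear ratio), −log10 p and −log10 q, and a score that was not used. The input has no file of its own here and enters through the background.

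A whole-number pileup was recovered for each peak from fold enrichment and −log10 p (largest misfit 3.49e-05). The lowest background, 3.45 fragments, corresponds to about 56800000 ChIP reads for a fragment of 164 bp, the smallest peak width, and a genome of 2700000000 bp. Genes came from GENCODE v44 lifted to GRCh37, whose chromosome lengths held every deposited peak. With 1 library per group no test was possible, so counts, medians and 95% intervals (exact Poisson or Clopper-Pearson) are given beside all protein-coding genes. The Clopper-Pearson intervals treat the genes as independent draws and are not a test against the background share. Python 3.11.15 with pysam 0.24.0 and scipy 1.17.1 was used, and exact copies were found with blastn 2.17.0. The steps were tested on simulated data.

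The members, gene lists and motifs were chosen with earlier results of these data known. Named with full values were the 10 strongest and 5 weakest bound members, unbound members, those sharing a peak with another member and those with 3 or more promoter peaks, and of each other list the strongest 2 and the unbound genes, except results that are not reported here. Other values were named to describe classes and pairs. Alternatives varied the peak threshold, window, TSS, merging, ranking, motif window and the distance and kind of partner.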

Additional observations from a re-analysis of the deposited data

How the results depend on the processing

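Of 113 alternative values of the results, 96 stayed within the 95% binomial interval of the original value (shares) or within 1.5 times of it (counts, medians, distances and differences), and none changed direction. The 77 bound members became 76 with peaks of at least 5-fold and 75 with the outermost TSS only. The share of bound protein-coding genes, 59.4%, was 56.0% with −log10 q of at least 5, 49.6% with at least 5-fold, 58.1% with 500 bp either side, 61.8% with 5000 bp upstream to 1000 bp downstream, 58.6% with the summit in the window, 53.2% with the outermost and 55.9% with the canonical TSS only. The median distance of 35 bp from summit to TSS was 57 bp with the outermost and 54 bp with the canonical TSS only. The difference between divergent and other members, 2.19, was 1.37 with partners within 500 bp and 1.43 with the outermost TSS only. Wider motif windows moved YY1 to 32.9%, SP1 to 47.4% and 59.2%, CCAAT to 30.3% and MYB to 28.9% and 40.8%. The 47.4% of SP1 and 28.9% of MYB are for 100 bp either side of the summit. No share over protein-coding genes is given for that window, so these rises have no background beside them. In the widest window, the 300 bp at the TSS, bound protein-coding genes had 10.8% for YY1, 71.7% for SP1, 35.9% for CCAAT and 42.7% for MYB. These shares count bound genes, as do the 300 bp shares of the 77 members given earlier. The member shares in this paragraph count the 76 distinct best peaks. A shorter string for THAP11 and ZNF143, ACTACAA, chosen after the sequence of MRPL24 was seen, stood at 2 of 76 member summits (2.63%, MRPL24 and MRPS14), against 1.96% of all. With 1 library per group, no replicate could be left out and none could be paired. The counting interval of a typical best peak was wide, so most neighbours in the order of the members could not be told apart.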
